A study of Mus musculus with 8 samples.

Results

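Cytochrome P450 enzymes of the intestine were followed as 10 genes chosen by name: Cyp3a11, Cyp3a13 and Cyp3a25 of the CYP3A family, Cyp2c65, Cyp2c66, Cyp2d26, Cyp2j6 and Cyp2b10 of the CYP2 family, Cyp4f14 of the CYP4F family, and Cyp1a1. These are 10 of the 23366 genes in the count tables, which also list 92 other genes with a Cyp symbol. All 10 passed the filter on low counts, under which 20427 genes were tested. The data are RNA-seq read counts of CD326-positive intestinal epithelial cells, sorted by flow cytometry at 50000 cells per library from male mice of 6 weeks. Sox4cKO animals carried Sox4fl/fl:vilCre+/-, and control littermates carried Sox4fl/fl without the Cre. The floxed Sox4 alleles were therefore shared by both genotypes. The villin promoter drives the Cre in cells in which it is active, among them those of the intestinal epithelium. From each genotype, 2 animals gave a CD44+ library (CD44plus, enriched for crypt cells) and a CD44- library (CD44minus, enriched for villus cells). The design compares the gates within a genotype and the genotypes within a gate.

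P450 enzymes are haem proteins of the endoplasmic reticulum that oxidise drugs, food compounds, steroids and fatty acids with electrons passed on by P450 reductase. In the small intestine they are known mainly from absorptive enterocytes of the villus, where CYP3A enzymes meet oral drugs before these reach the liver. Several P450 genes are classical targets of ligand-activated factors: CYP3A genes of the pregnane X receptor (Nr1i2), Cyp2b10 of the constitutive androstane receptor (Nr1i3) and Cyp1a1 of the aryl hydrocarbon receptor (Ahr).

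Depth and purity differed between libraries. Gene counts were 7679575 and 13238050 in Sox4cKO CD44plus, 12249272 and 6007554 in control CD44plus, 1175251 and 6963345 in Sox4cKO CD44minus, and 886194 and 2327002 in control CD44minus. Here and in all later pairs of values, replicate 1 is given before replicate 2. Levels are CPM (reads of a gene relative to the library's gene counts) scaled by trimmed mean of M values (TMM), a factor per library that varied between 0.527 in Sox4cKO CD44minus replicate 2 and 1.72 in Sox4cKO CD44minus replicate 1. Epithelium is not known to express olfactory and vomeronasal receptor genes. Their reads made up 4111 CPM of library totals in Sox4cKO CD44minus replicate 1 and 3623 CPM in control CD44minus replicate 1. Control CD44minus replicate 2 had 1356 CPM and the remaining libraries 68.4 to 358 CPM, so the 2 replicate 1 libraries of CD44minus stand apart. Sox4 itself checks the labels: it had 17.8 and 25.7 CPM in Sox4cKO CD44plus, against 128 and 120 CPM in control CD44plus. In the other gate it had 1.98 and 0.272 CPM in Sox4cKO CD44minus, against 6.74 and 8.26 CPM in control CD44minus. Cd44 lay between 203 and 327 CPM in CD44plus and between 5.72 and 27.2 CPM in CD44minus, in the direction of the gate names. Epcam, the gene of CD326, lay between 473 and 2793 CPM in all 8 libraries. Albumin, a hepatocyte product, had 1 to 18 reads per library.

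The promoters of 6 of the genes are printed because these genes mark both ends of the gate comparison described next: Cyp3a11, Cyp3a25, Cyp2b10 and Cyp2d26 fell in CD44plus of both genotypes, and Cyp2c65 and Cyp2j6 had the smallest differences in control animals. Each is the RefSeq window (GRCm38.p6) of 250 bases before to 50 bases after the annotated start, 5′ to 3′ on the gene's strand. Capitals mark AGGTCA (the core hexamer bound by many nuclear receptors), CAAAGTCCA (an element of the type bound by HNF4), GCGTG (the core of the element bound by the aryl hydrocarbon receptor) and TTTATNG (an element of the type bound by CDX factors), each searched on both strands.
Cyp3a11: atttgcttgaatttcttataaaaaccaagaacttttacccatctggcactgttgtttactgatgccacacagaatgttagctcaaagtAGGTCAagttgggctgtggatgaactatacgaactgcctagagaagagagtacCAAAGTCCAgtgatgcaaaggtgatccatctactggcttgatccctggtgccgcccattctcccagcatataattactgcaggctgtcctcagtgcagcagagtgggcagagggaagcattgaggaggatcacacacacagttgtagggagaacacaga
Cyp3a25: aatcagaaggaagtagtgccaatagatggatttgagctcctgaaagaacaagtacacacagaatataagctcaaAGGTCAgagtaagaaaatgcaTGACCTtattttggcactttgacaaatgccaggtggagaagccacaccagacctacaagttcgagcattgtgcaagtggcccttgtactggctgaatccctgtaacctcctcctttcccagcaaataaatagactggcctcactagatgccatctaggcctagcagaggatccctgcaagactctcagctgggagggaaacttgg
Cyp2b10: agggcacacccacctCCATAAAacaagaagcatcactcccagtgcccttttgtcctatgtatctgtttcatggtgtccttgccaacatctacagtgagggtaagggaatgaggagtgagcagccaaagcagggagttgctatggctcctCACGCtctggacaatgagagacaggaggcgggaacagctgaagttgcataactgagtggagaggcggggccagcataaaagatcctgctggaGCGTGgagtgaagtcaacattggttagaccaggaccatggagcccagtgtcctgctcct
Cyp2d26: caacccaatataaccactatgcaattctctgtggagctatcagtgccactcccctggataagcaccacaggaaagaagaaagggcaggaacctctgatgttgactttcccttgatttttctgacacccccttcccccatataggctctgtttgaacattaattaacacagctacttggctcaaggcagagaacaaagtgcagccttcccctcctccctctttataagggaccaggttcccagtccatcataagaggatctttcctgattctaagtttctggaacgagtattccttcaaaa
Cyp2c65: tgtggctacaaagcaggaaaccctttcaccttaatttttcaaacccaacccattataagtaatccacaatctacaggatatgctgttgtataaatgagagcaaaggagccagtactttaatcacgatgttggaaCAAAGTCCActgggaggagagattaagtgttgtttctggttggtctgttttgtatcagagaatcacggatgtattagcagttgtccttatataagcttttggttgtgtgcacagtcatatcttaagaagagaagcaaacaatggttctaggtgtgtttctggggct
Cyp2j6: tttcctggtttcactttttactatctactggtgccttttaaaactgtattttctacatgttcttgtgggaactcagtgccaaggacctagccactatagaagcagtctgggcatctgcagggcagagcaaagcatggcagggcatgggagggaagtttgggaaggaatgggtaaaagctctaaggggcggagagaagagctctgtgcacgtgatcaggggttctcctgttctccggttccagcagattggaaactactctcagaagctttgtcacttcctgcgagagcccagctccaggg
AGGTCA stood at 162 bases before the start of Cyp3a11 and at 176 and 155 bases before that of Cyp3a25, there on opposite strands. It was found in 2 of the 10 promoters and in 16.3% of all 32851 RefSeq windows of the same length. CAAAGTCCA, 109 bases before the start of Cyp3a11 and 116 before that of Cyp2c65, occurred in 2 of the 10 and in 0.475% of all windows. These genes had the lowest and the highest log2 fold change between gates in control. GCGTG was present in 3 of the 10 promoters, those of Cyp1a1, Cyp2b10 and Cyp4f14, and in 32.4% of all windows, and TTTATNG in those of Cyp1a1 and Cyp2b10 and in 10.9% of all windows. AGATAA, an element of the type bound by GATA factors, occurred once, in the Cyp1a1 promoter, and in 11.2% of all windows, and the palindrome bound by HNF1 in 0 of the 10 and in 0.00913% of all windows. No matches overlapped. The windows of Cyp2d26 and Cyp2j6 held none of these strings. A match describes letters only, and a missing match says nothing of the factor outside this window.

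The 10 genes lie on 7 chromosomes of GRCm38. The CYP3A genes are on chromosome 5, with Cyp3a11 at chr5:145854426-145879964, Cyp3a25 at chr5:145977194-146009618 and Cyp3a13 apart from them at chr5:137892932-137921619, all on the minus strand. Cyp2c65 (chr19:39061015-39093944) and Cyp2c66 (chr19:39113898-39187072) are neighbours on the plus strand. The single genes are Cyp2d26 (chr15:82790101-82794294), Cyp2j6 (chr4:96516138-96553661), Cyp4f14 (chr17:32905070-32917342), Cyp2b10 (chr7:25897620-25926624) and Cyp1a1 (chr9:57687928-57703824). No exon of another annotated gene overlaps an exon of these genes. Counting can still lose or misplace reads from near-identical copies. This was described by all stretches of 50 bases in the longest coding transcript. Of Cyp3a25, 26.8% also occur in transcripts of other genes, mainly Cyp3a59. Of Cyp2c66, 24% occur in Cyp2c65, and of Cyp2c65, 20.6% occur elsewhere, mainly in Cyp2c66. Shared stretches made up 14.8% of Cyp3a11, 10.5% of Cyp2d26 and 9.69% of Cyp2b10. These shares describe sequence, and the error of the counts was not measured. Shared stretches were 3.55% or less in the other 4 genes and absent from Cyp3a13.

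Every one of the 10 P450 genes had a lower mean level in the crypt-enriched CD44plus gate than in the villus-enriched CD44minus gate, in both genotypes. Past the threshold (edgeR's quasi-likelihood test, adjusted p under 0.05), 6 of the 10 fell in Sox4cKO animals, by 11.8-fold to 22.2-fold, and 4 of the 10 in control animals, by 9.93-fold to 16.2-fold. Of all genes tested, 0.93% fell in Sox4cKO and 0.445% in control. The median log2 fold change of the 10 was -3.59 in Sox4cKO, against -0.48 for all genes, and -3.10 in control, against -0.19 for all genes. Cyp3a11, Cyp3a25, Cyp2d26 and Cyp2b10 fell in both genotypes, while Cyp2c65, Cyp2c66, Cyp2j6 and Cyp1a1 passed the threshold in neither. Among 8 libraries of bulk RNA, fewer cells of a type and less RNA per cell cannot be told apart.

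**Figure D1:**
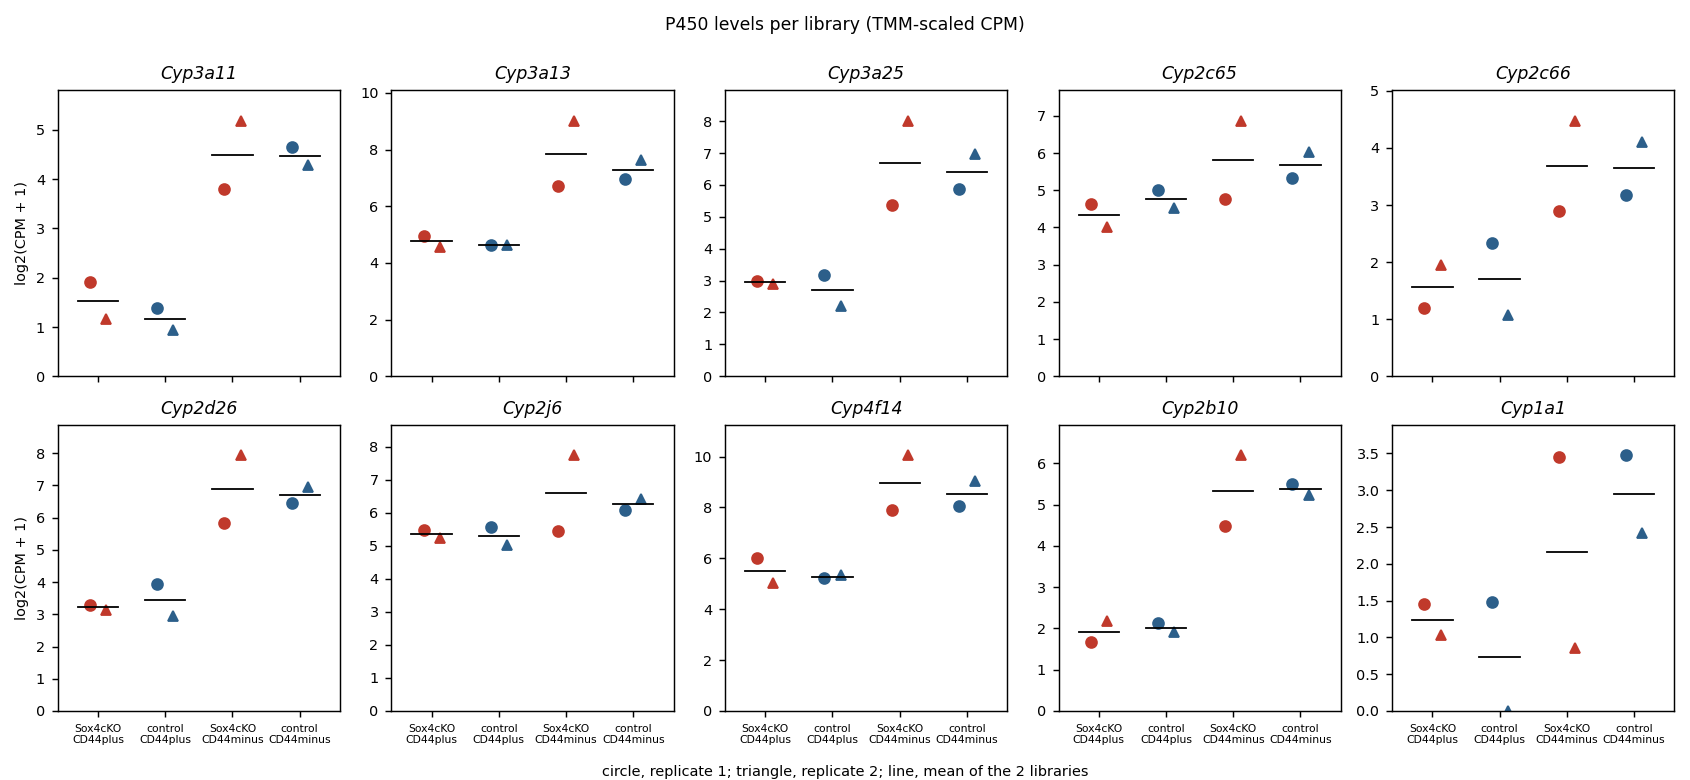
Level of each P450 gene in every library, as log2 of TMM-scaled CPM plus 1 (y axis), by genotype and gate (x axis, Sox4cKO in red and control in blue, n = 2 libraries per group, black line the mean). Cyp4f14 reaches 1054 CPM in Sox4cKO CD44minus replicate 2, the highest value of the panel set, and Cyp1a1 lies at 0 CPM in control CD44plus replicate 2.

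Of the CYP3A enzymes, which oxidise many drugs and steroids, Cyp3a11 is the mouse gene most often set beside human CYP3A4. It had 2.75 and 1.23 CPM in Sox4cKO CD44plus, against 12.9 and 35.4 CPM in Sox4cKO CD44minus, and 1.61 and 0.913 CPM in control CD44plus, against 24.2 and 18.5 CPM in control CD44minus. All CD44plus libraries were below all CD44minus libraries, and the log2 fold change was -3.62 ± 0.82 (SE) in Sox4cKO (edgeR adjusted p = 0.0266) and -4.02 ± 0.85 in control (edgeR adjusted p = 0.0232). The counts behind these values were small, at 5 to 19 reads in the CD44plus libraries and 26 to 130 in the CD44minus libraries. Receptor reads can be taken as a background that grows with the exon length of a gene. The rate was set per base of receptor coding sequence (background by coding length) or per base of receptor exons (by exon length). In control CD44plus, 11.6 and 5.26 background reads of Cyp3a11 were expected by coding length, where 18 and 5 were counted, and 3.37 and 1.55 by exon length. Both rates were applied to all 5093 exon bases of Cyp3a11, although its longest coding transcript has 2344. With the coding-length background subtracted, the call in Sox4cKO was lost (-3.65 ± 1.26, edgeR adjusted p = 0.101), and the control value was -6.18 ± 1.43 (edgeR adjusted p = 0.0237). Cyp3a25 had 6.94 and 6.44 CPM in Sox4cKO CD44plus, against 40.1 and 257 CPM in Sox4cKO CD44minus, and 7.95 and 3.65 CPM in control CD44plus, against 57.3 and 125 CPM in control CD44minus. Its log2 fold change in Sox4cKO, -4.47 ± 0.87 (edgeR adjusted p = 0.0153), was the lowest of the 10 genes, and the log2 fold change in control was -3.95 ± 0.85 (edgeR adjusted p = 0.0244). Cyp3a13, known for its intestinal expression, was the most abundant of the CYP3A genes, with 29.9 and 22.7 CPM in Sox4cKO CD44plus, against 103 and 518 CPM in Sox4cKO CD44minus, and 23.9 and 23.7 CPM in control CD44plus, against 123 and 196 CPM in control CD44minus. The gates did not overlap in either genotype. The log2 fold change of Cyp3a13 was -3.56 ± 0.86 in Sox4cKO (edgeR adjusted p = 0.0345), and in control it was -2.74 ± 0.83, which missed the threshold (edgeR adjusted p = 0.0828).

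Cyp2c65 and Cyp2c66 encode CYP2C enzymes of the gut that oxidise arachidonic acid. Cyp2c65 had 23.9 and 15.3 CPM in Sox4cKO CD44plus, against 26.2 and 116 CPM in Sox4cKO CD44minus, and 30.9 and 22.1 CPM in control CD44plus, against 39.1 and 63.7 CPM in control CD44minus. The gates did not overlap in either genotype, but the log2 fold changes of -1.87 ± 0.67 in Sox4cKO (edgeR adjusted p = 0.158) and -0.96 ± 0.66 in control (edgeR adjusted p = 0.336) missed the threshold. Its neighbour Cyp2c66 was scarcer, with 1.30 and 2.84 CPM in Sox4cKO CD44plus, against 6.44 and 21.3 CPM in Sox4cKO CD44minus, and 4.02 and 1.10 CPM in control CD44plus, against 8.08 and 16.1 CPM in control CD44minus. The gates did not overlap, yet with 6 to 78 reads per library the log2 fold changes of -2.73 ± 1.02 in Sox4cKO (edgeR adjusted p = 0.176) and -2.21 ± 1.00 in control (edgeR adjusted p = 0.201) missed the threshold.

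Cyp2d26, a member of the CYP2D family, had 8.82 and 7.77 CPM in Sox4cKO CD44plus, against 56.5 and 243 CPM in Sox4cKO CD44minus, and 14.2 and 6.76 CPM in control CD44plus, against 87.6 and 122 CPM in control CD44minus. The gates were apart in both genotypes, and the log2 fold change was -4.17 ± 0.79 in Sox4cKO (edgeR adjusted p = 0.0147) and -3.31 ± 0.76 in control (edgeR adjusted p = 0.0303). Cyp2b10, the best known target gene of the constitutive androstane receptor in mouse liver, had 2.17 and 3.51 CPM in Sox4cKO CD44plus, against 21.3 and 72.2 CPM in Sox4cKO CD44minus, and 3.40 and 2.74 CPM in control CD44plus, against 44.5 and 37.0 CPM in control CD44minus. Its gates were apart in both genotypes, and its adjusted p was the smallest of the 10 genes in both genotypes: the log2 fold change was -4.03 ± 0.68 in Sox4cKO (edgeR adjusted p = 0.0134) and -3.71 ± 0.68 in control (edgeR adjusted p = 0.014). Cyp2j6, of the family of CYP2J fatty acid epoxygenases, had 43.4 and 36.4 CPM in Sox4cKO CD44plus, against 43.1 and 212 CPM in Sox4cKO CD44minus, and 46.3 and 31.4 CPM in control CD44plus, against 66.7 and 85.3 CPM in control CD44minus. Of these, the Sox4cKO gates overlapped, and the log2 fold changes of -1.68 ± 0.71 in Sox4cKO (edgeR adjusted p = 0.232) and -0.97 ± 0.71 in control (edgeR adjusted p = 0.36) missed the threshold.

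Cyp4f14 encodes an omega-hydroxylase of leukotriene B4 and vitamin E, and it was the most abundant of the 10 genes per kilobase in every group. It had 62.9 and 31.6 CPM in Sox4cKO CD44plus, against 239 and 1054 CPM in Sox4cKO CD44minus, and 36.7 and 39.1 CPM in control CD44plus, against 262 and 529 CPM in control CD44minus. The gates were apart in both genotypes, with a log2 fold change of -3.78 ± 0.99 in Sox4cKO (edgeR adjusted p = 0.0487) and of -3.38 ± 0.97 in control, where it missed the threshold (edgeR adjusted p = 0.0732). Cyp1a1, the classical aryl hydrocarbon receptor target, was barely detected, with 12 and 11 reads in Sox4cKO CD44plus, 20 and 3 reads in Sox4cKO CD44minus, 20 and 0 reads in control CD44plus, and 15 and 11 reads in control CD44minus. A count of 0 allows up to 3 reads, which is 0.499 CPM of the control CD44plus replicate 2 total. The background expected from receptor reads was 0.471 to 2.52 reads of Cyp1a1 per library by receptor exon length, and 1.6 to 8.6 reads by receptor coding length. Its log2 fold changes of -1.91 ± 1.52 in Sox4cKO (edgeR adjusted p = 0.481) and -2.89 ± 1.57 in control (edgeR adjusted p = 0.255) rest on those reads.

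**Figure D2:**
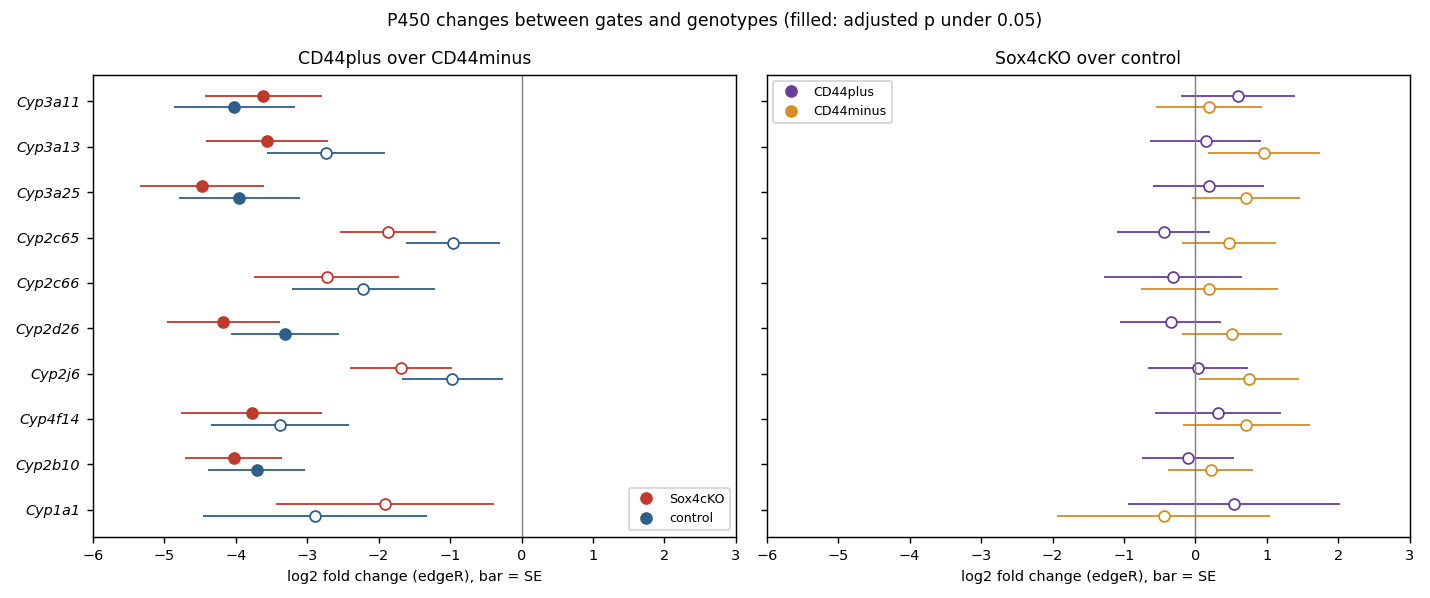
Log2 fold change of each P450 gene (x axis, bars SE derived from the F statistic of the edgeR test over 8 libraries) between gates, CD44plus over CD44minus, in Sox4cKO and control animals (left), and between genotypes, Sox4cKO over control, in each gate (right). Filled points have an adjusted p under 0.05: 6 genes in Sox4cKO and 4 in control between the gates, and 0 between genotypes.

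The 2 libraries of an animal carry its number in the names of their tables, so the comparison can be read within animals. In 8 of the 10 genes the CD44plus library was below the CD44minus library in 4 of 4 animals, and in Cyp2j6 and Cyp1a1 in 3 of 4. On library totals Cyp2j6 was lower in 4 of 4 animals and Cyp1a1 in 3 of 4. The share of all genes that were lower in 4 of 4 animals was not computed, so these counts describe the libraries only. With the animal as a replicate block, edgeR called 7 of the 10 lower in Sox4cKO and 8 of the 10 in control, where 4.43% and 10.5% of all genes fell. Under the block, Cyp2c66 passed the threshold in both genotypes (edgeR adjusted p = 0.0238 in Sox4cKO and 0.0385 in control), and Cyp3a13, Cyp4f14 and Cyp1a1 passed it in control (edgeR adjusted p = 0.0223, 0.0229 and 0.0259). With an estimated correlation within animals, limma-voom called 6 of the 10 in each genotype, where 2.53% and 6.02% of all genes fell. There Cyp2c66 passed in neither genotype (limma adjusted p = 0.0555 in Sox4cKO and 0.0669 in control), nor did Cyp1a1 in control (limma adjusted p = 0.0597). In terms of overlap, 8 of the 10 genes had both CD44plus libraries below both CD44minus libraries in Sox4cKO, as did 16.2% of all genes, and all 10 in control, as did 41.0% of all genes. The calls depended on single libraries, with the remaining library of a group assumed to vary like the other groups: in Sox4cKO, 0 of the 10 were called without Sox4cKO CD44plus replicate 2 (0.0% of all genes), 3 without Sox4cKO CD44plus replicate 1 (0.63%), 3 without control CD44minus replicate 2 (0.582%) and 9 without Sox4cKO CD44minus replicate 1 (8.25%). For control, 0 were called without control CD44minus replicate 2 (0.0%), control CD44plus replicate 1 (0.00981%) or control CD44plus replicate 2 (0.0%), and 1 without control CD44minus replicate 1 (0.142%). Without Sox4cKO CD44minus replicate 1, 9 were called in control (12.3%), and 8 without Sox4cKO CD44minus replicate 2 (11.8%). The size of the differences depended on single libraries too. For Cyp3a11, Cyp3a13, Cyp3a25, Cyp2d26, Cyp4f14 and Cyp2b10 in Sox4cKO, log2 fold changes lay between -2.87 and -1.96 without Sox4cKO CD44minus replicate 2, where 6 of the 10 were called (16.0% of all genes) at a median of -2.45, and between -5.26 and -4.18 without replicate 1. In control, Cyp3a25 was at -3.29 without control CD44minus replicate 2 and at -4.64 without control CD44plus replicate 1, and Cyp2d26 at -3.96 without control CD44plus replicate 1. Markers of T cells and intraepithelial lymphocytes moved with the gate: their summed level over 15 genes, none of them at 0, was 2639 and 6362 CPM in Sox4cKO CD44plus, against 230 and 1035 CPM in Sox4cKO CD44minus, and 2411 and 3908 CPM in control CD44plus, against 214 and 345 CPM in control CD44minus. Of these 15, 5 rose in Sox4cKO and 6 in control, where 1.66% and 2.01% of all genes rose. Of 11 B, plasma and myeloid cell genes, 4 rose in Sox4cKO and 1 in control. Enteroendocrine genes summed to 1326 and 1858 CPM in Sox4cKO CD44plus, against 239 and 363 CPM in Sox4cKO CD44minus, and to 4976 and 6226 CPM in control CD44plus, against 233 and 329 CPM in control CD44minus, and 2 of 14 rose in Sox4cKO and 7 in control. Paneth cell genes moved in the direction of the P450 genes, at 5092 and 4166 CPM in Sox4cKO CD44plus, against 5836 and 32175 CPM in Sox4cKO CD44minus, and at 3925 and 3380 CPM in control CD44plus, against 9159 and 19741 CPM in control CD44minus, with none of the 8 at 0 and 1 of them past the threshold in Sox4cKO and 0 in control. Villus tip genes overlapped between gates, at 882 and 1069 CPM in Sox4cKO CD44plus, against 762 and 3488 CPM in Sox4cKO CD44minus. In control they had 994 and 849 CPM in CD44plus, against 812 and 1424 CPM in CD44minus. Of these 12, 5 fell in Sox4cKO and 2 in control, where 0.93% and 0.445% of all genes fell. Of 18 crypt stem and transit amplifying genes, 6 rose in Sox4cKO and 8 in control. Hepatocyte genes gave 0 calls among 7 tested. Of the 7, 3 were above 0 between gates and 4 below in each genotype. Their median log2 fold change was -1.11 in Sox4cKO and -1.73 in control. Their sum went the other way, at 1921 to 3055 CPM in CD44plus and 219 to 756 CPM in CD44minus. It was mostly Cps1 (1860 to 3001 CPM and 149.6 to 738 CPM), which intestinal epithelium also expresses. The part of these cells in the P450 differences was not tested.

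The order of the 10 genes, compared per kilobase of the longest coding transcript, differed between the gates. In control CD44minus, Cyp4f14 led at 178 ± 84.9 CPM per kilobase (SD, n = 2), followed by Cyp2d26 at 61.7 ± 14.4, Cyp3a13 at 54 ± 17.3 and Cyp3a25 at 45.5 ± 23.8 CPM per kilobase. Cyp2c65 at 26.6 ± 9.03, Cyp2b10 at 21.2 ± 2.77 and Cyp2j6 at 21.1 ± 3.65 CPM per kilobase came next, and from Cyp2d26 to Cyp2j6 the libraries of every neighbour in the order overlapped. Cyp3a11 at 9.11 ± 1.74, Cyp2c66 at 7.42 ± 3.49 and Cyp1a1 at 2.67 ± 1.52 CPM per kilobase came last, of which Cyp3a11 and Cyp2c66 overlapped. In control CD44plus, Cyp4f14 still led at 17.1 ± 0.75 CPM per kilobase, but Cyp2c65 at 13.7 ± 3.23 and Cyp2j6 at 10.8 ± 2.92 CPM per kilobase came next, before Cyp3a13 at 8.07 ± 0.05 and Cyp2d26 at 6.17 ± 3.10 CPM per kilobase. Cyp2c65 and Cyp2j6 overlapped each other, and Cyp2d26 overlapped Cyp3a13. Sox4cKO CD44plus had Cyp4f14 at 21.3 ± 9.98, Cyp2j6 at 11.1 ± 1.37, Cyp2c65 at 10.1 ± 3.16, Cyp3a13 at 8.91 ± 1.72 and Cyp2d26 at 4.88 ± 0.44 CPM per kilobase, and Cyp2j6, Cyp2c65 and Cyp3a13 overlapped there. In Sox4cKO CD44minus the SD of most genes was close to the mean, as for Cyp4f14 at 291 ± 259 CPM per kilobase, and no order was read there.

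Because enterocytes are the known site of these enzymes, each gene was also expressed as a percent of the summed reads of 23 enterocyte genes (among them Alpi, Lct, Fabp1 and Sis), a list whose members had a median log2 fold change of -4.09 between gates in Sox4cKO and -3.35 in control and of which 10 fell in Sox4cKO and 7 in control. This ratio does not depend on the scaling of the libraries. It does depend on the makeup of the list, whose members differed between gates to unlike extents. In control, Mgam, also in the list, had 1053 and 946 CPM in CD44plus, against 1823 and 3446.5 CPM in CD44minus. Alpi had 52.1 and 39.1 CPM in control CD44plus, against 486 and 827 CPM in control CD44minus. Ratios to other choices of enterocyte genes were not computed. Together, the reads of the 10 P450 genes amounted to 3.40 and 2.97% of the enterocyte reads in Sox4cKO CD44plus, against 3.24 and 2.81% in Sox4cKO CD44minus, and to 3.35 and 3.08% in control CD44plus, against 3.40 and 2.90% in control CD44minus. The sum thus stayed between 2.81 and 3.40% in all 8 libraries. Its parts did not: Cyp2j6 made up 0.802 and 0.838% in Sox4cKO CD44plus, against 0.250 and 0.236% in Sox4cKO CD44minus, and 0.907 and 0.736% in control CD44plus, against 0.314 and 0.207% in control CD44minus. Cyp2c65 shifted the same way, at 0.441 and 0.352% in Sox4cKO CD44plus, against 0.152 and 0.129% in Sox4cKO CD44minus, and at 0.606 and 0.517% in control CD44plus, against 0.184 and 0.154% in control CD44minus. Relative to the sum of this list, both were thus higher in the crypt-enriched gate, with no overlap. Cyp3a25, Cyp2d26 and Cyp4f14 took a smaller share of the enterocyte reads in CD44plus than in CD44minus in both genotypes, without overlap, as Cyp3a25 did with 0.128 and 0.148% in Sox4cKO CD44plus, against 0.233 and 0.285% in Sox4cKO CD44minus. Cyp3a13 stayed between 0.469 and 0.597% in all 8 libraries. These ratios were chosen after seeing the data and are given with no test.

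**Figure D3:**
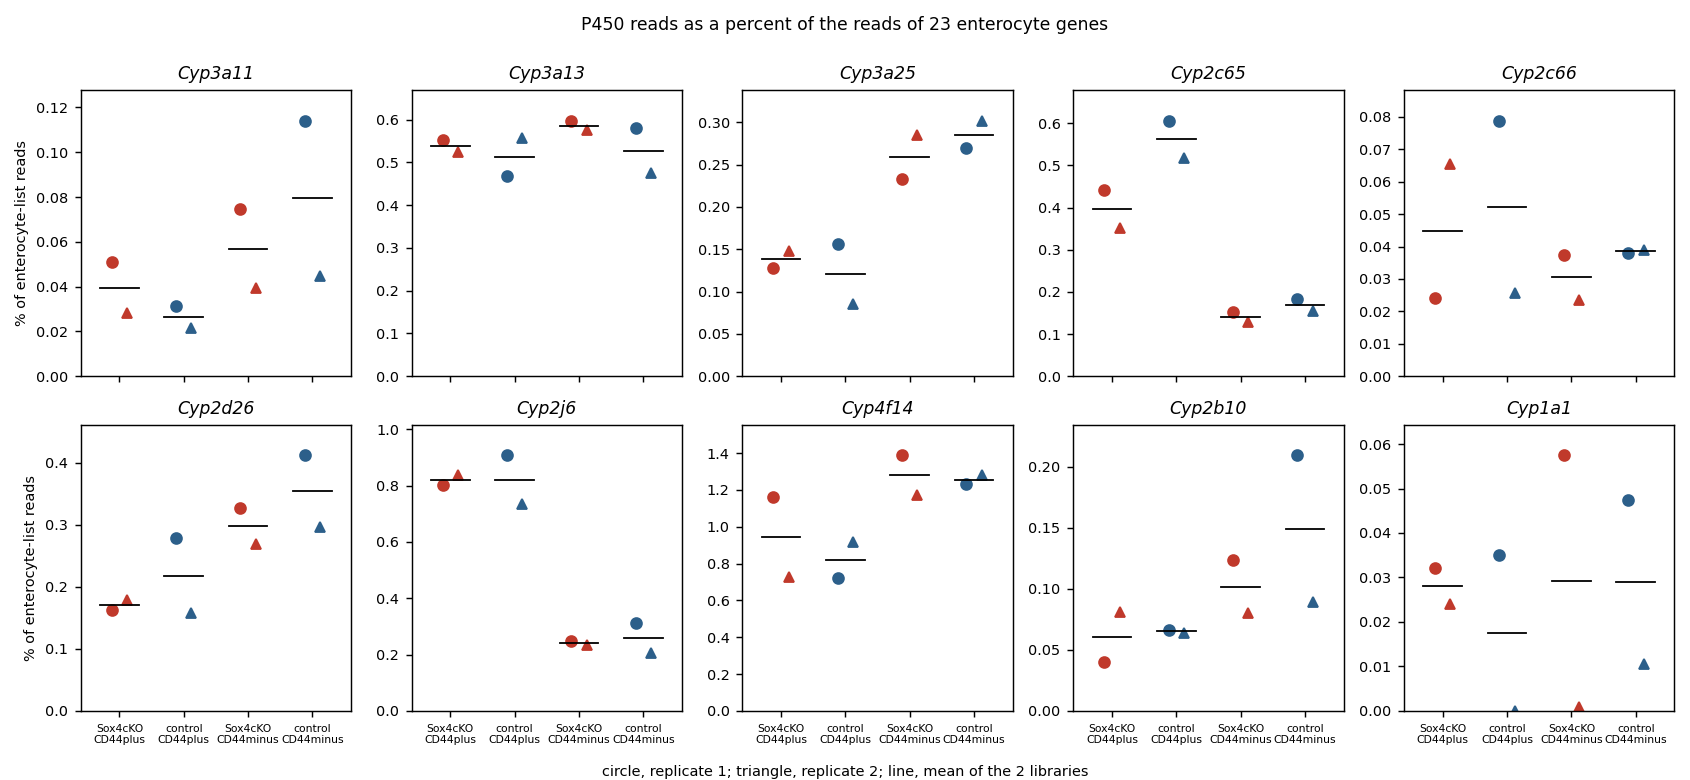
Reads of each P450 gene as a percent of the summed reads of 23 enterocyte genes (y axis) by genotype and gate (x axis, n = 2 libraries per group, black line the mean). Cyp2j6 lies at 0.736 to 0.907% in CD44plus and 0.207 to 0.314% in CD44minus, Cyp2c65 shifts the same way, and Cyp3a13 stays between 0.469 and 0.597%.

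**Figure D4:**
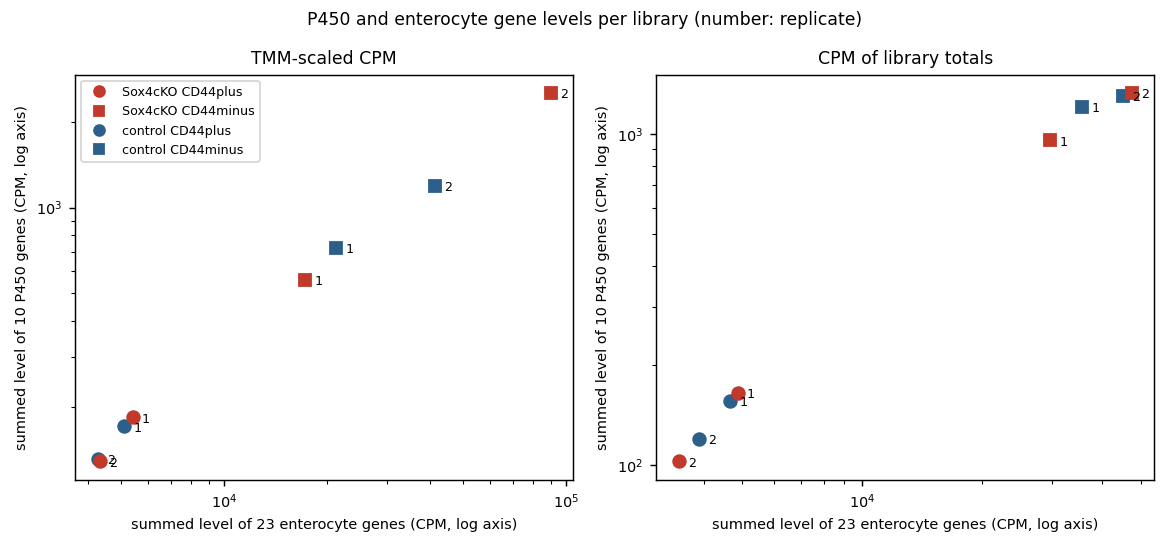
Summed level of the 10 P450 genes (y axis, log) against that of 23 enterocyte genes (x axis, log) in each library, in TMM-scaled CPM (left) and in CPM of library totals (right), with Sox4cKO in red, control in blue, CD44plus as circles and CD44minus as squares. Sox4cKO CD44minus replicate 2 reaches 2529 TMM-scaled CPM for the P450 genes but 1333 CPM of library totals, beside 1308 CPM in control CD44minus replicate 2.

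Between genotypes, none of the 10 P450 genes passed the threshold in either gate in the edgeR test over 8 libraries. Neither did Sox4, the deleted gene, at 17.8 and 25.7 CPM in Sox4cKO CD44plus against 128 and 120 CPM in control CD44plus. In CD44minus, 0 of the 10 passed the threshold, as did 0.0% of all genes (edgeR; 0 of the 10 and 116 of all genes had an unadjusted p under 0.05), and DESeq2 and limma-voom called 0 of the 10 too. In CD44plus, 0 of the 10 and 0.0% of all genes passed it (edgeR; 0 of the 10 and 128 of all genes had an unadjusted p under 0.05), likewise with DESeq2 and limma-voom. The fitted log2 fold changes in CD44plus ran from -0.44 ± 0.65 for Cyp2c65 to 0.60 ± 0.80 for Cyp3a11, with 6 of 10 above 0 and a median of 0.089. A p that misses the threshold does not show equal levels, and the SE of 0.64 to 1.48 in that gate leaves room for changes of the size fitted.

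In CD44minus the fitted differences depended on single libraries and on the scaling. With TMM scaling 9 of 10 genes were above 0, at a median log2 fold change of 0.49, against 0.19 for all genes, with the highest value for Cyp3a13 (0.96 ± 0.78) and the lowest for Cyp1a1 (-0.44 ± 1.49). Sox4cKO CD44minus replicate 2 held the highest level of 9 of the 10 genes and replicate 1 a level below both control libraries in the same 9, so the control libraries lay between the Sox4cKO libraries. For Cyp4f14 these were 239 and 1054 CPM in Sox4cKO CD44minus, against 262 and 529 CPM in control CD44minus, a log2 fold change of 0.71 ± 0.89 (edgeR adjusted p = 1.00). On library totals the same reads were 411 and 556 CPM in Sox4cKO, against 439 and 578 CPM in control, and the log2 fold change was -0.07. Without TMM factors 1 of the 10 was above 0, and the median was -0.32 for the 10 genes and -0.12 for all genes. The change of scaling shifted all genes by a median of -0.28. With upper-quartile scaling 3 of the 10 were above 0. On library totals Cyp2c65, Cyp2c66, Cyp2d26 and Cyp2b10 had both Sox4cKO libraries below both control libraries, as did 6.57% of all genes, and none passed the test. Left without Sox4cKO CD44minus replicate 1, edgeR called 6 of the 10 higher in Sox4cKO, as it did 27.5% of all genes, at a median of 1.16. The median was 0.82 without control CD44minus replicate 2. Without Sox4cKO CD44minus replicate 2 edgeR called 0 (0.0%), with a median of -0.87 and 1 of the 10, Cyp1a1, above 0.

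**Figure D5:**
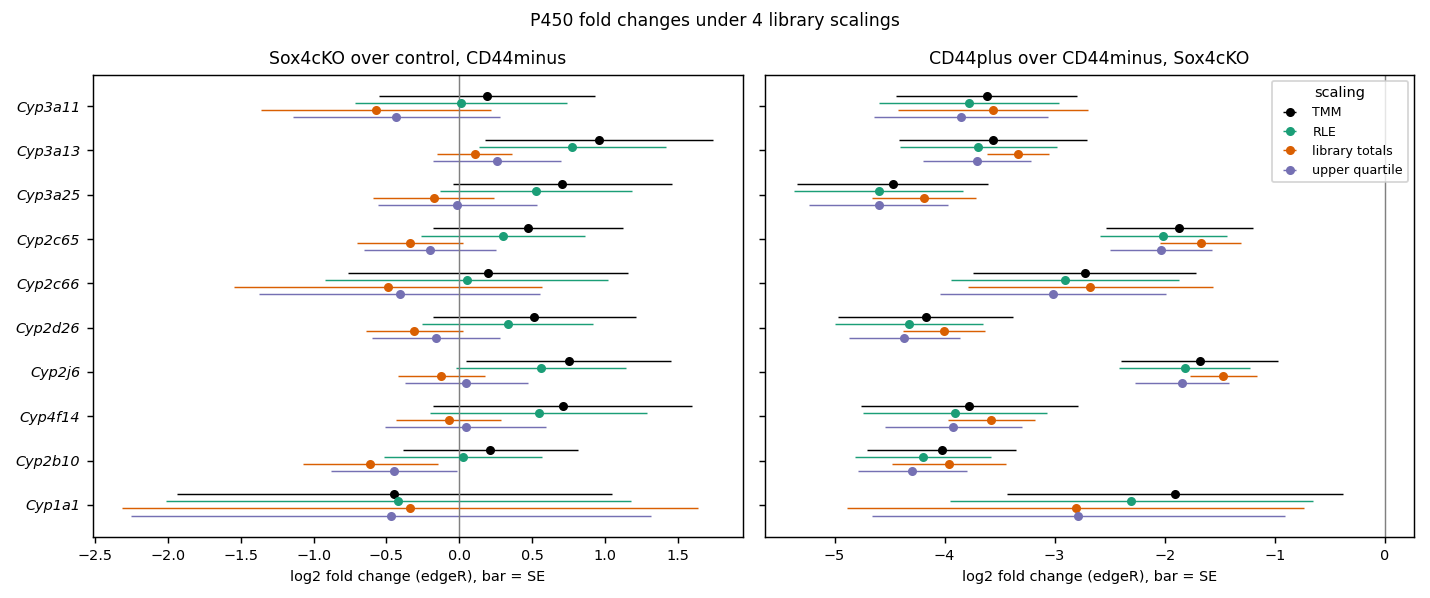
Log2 fold changes of the P450 genes (x axis, bars SE) under 4 ways of scaling the libraries, for Sox4cKO over control in CD44minus (left) and for CD44plus over CD44minus in Sox4cKO (right). On the left 9 of 10 genes are above 0 with TMM and 1 of 10 with library totals; on the right all 10 are below 0 under each scaling.

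Tested as an interaction, CD44plus minus CD44minus, the genotype effect differed past the threshold for 0 of the 10 genes and for 0.0% of all genes (edgeR; 0 of the 10 and 50 of all genes had an unadjusted p under 0.05, and DESeq2 called 0 of the 10). It was below 0 for 8 of the 10, at a median of -0.52, against -0.37 for all genes, and above 0 for 7 of the 10 on library totals and for all 10 without Sox4cKO CD44minus replicate 2.

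Of the factors that control P450 genes and their partners, few passed the test between gates, and none between genotypes. Among 20 nuclear receptors and genes of the aryl hydrocarbon receptor axis, 0 rose and 1 fell in each genotype, at median log2 fold changes of -0.42 in Sox4cKO and 0.27 in control. The gene that fell was Nr1i3, which encodes the constitutive androstane receptor. It had 5.06 and 3.41 CPM in Sox4cKO CD44plus, against 23.8 and 77.4 CPM in Sox4cKO CD44minus (log2 fold change -3.59 ± 0.66, edgeR adjusted p = 0.0142). In control it had 4.56 and 4.57 CPM in CD44plus, against 24.2 and 37.0 CPM in CD44minus (log2 fold change -2.75 ± 0.65, edgeR adjusted p = 0.0337). Nr1i3 and Cyp2b10 therefore fell in the same comparisons.

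Of 16 genes that supply electrons and haem, 0 rose and 1 fell in each genotype, at medians of -0.06 in Sox4cKO and 0.65 in control. The gene that fell, Slc46a1, is a folate and haem transporter of the enterocyte membrane rather than a P450 partner, and had log2 fold changes of -2.98 ± 0.72 in Sox4cKO (edgeR adjusted p = 0.0351) and -3.05 ± 0.74 in control (edgeR adjusted p = 0.0379). Of 36 conjugating enzymes and esterases, which act on drugs and on P450 products, 0 rose and 4 fell in Sox4cKO (median -1.61), and 0 rose and 2 fell in control (median -0.88). Sult2b1, a sulfotransferase of sterols, had log2 fold changes of -3.33 ± 0.70 in Sox4cKO (edgeR adjusted p = 0.0204) and -2.67 ± 0.69 in control (edgeR adjusted p = 0.0494). Ces2c, a carboxylesterase, had -3.03 ± 0.67 in Sox4cKO (edgeR adjusted p = 0.0234) and -2.66 ± 0.68 in control (edgeR adjusted p = 0.0459), and Ugt2a3 and Ces1f passed the threshold in Sox4cKO (-2.98 ± 0.67 and -2.52 ± 0.64, edgeR adjusted p = 0.0245 and 0.0429), with no difference between genotypes past the threshold. Of 14 transporters of drugs, Abcc1, an efflux pump, rose in Sox4cKO (2.61 ± 0.68, edgeR adjusted p = 0.0491), and Slc15a1, an uptake carrier of peptides and an enterocyte gene, fell in both genotypes (-4.59 ± 0.92 in Sox4cKO, edgeR adjusted p = 0.0168, and -4.25 ± 0.91 in control, edgeR adjusted p = 0.0236).

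Of the 92 other Cyp genes, 88 were tested, and 84 of these were below 0 between gates in Sox4cKO and 81 in control, at medians of -2.05 and -1.87, while 60.2% and 52.8% of all genes were below 0. Receptor reads were more frequent in 3 of 4 CD44minus libraries than in any CD44plus library, and their part in those medians was not tested. Past the threshold were 2 of the 88 in Sox4cKO, Cyp2c68 and Cyp4b1, and 0 in control, both named after their values were seen. Cyp2c68 had 5.06 and 4.83 CPM in Sox4cKO CD44plus, against 11.4 and 58.8 CPM in Sox4cKO CD44minus, and Cyp4b1 had 3.33 and 0.853 CPM, against 20.8 and 25.6 CPM. The most abundant other Cyp genes were Cyp4v3, Cyp51, Cyp4f16, Cyp4f40 and Cyp2s1, none of which passed the threshold. Cyp51, the lanosterol demethylase of cholesterol synthesis, had 111.5 and 104.5 CPM in Sox4cKO CD44plus, against 40.1 and 120 CPM in Sox4cKO CD44minus, a log2 fold change of 0.43 ± 0.66 (edgeR adjusted p = 0.711).

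As a description over the 8 libraries, which share gate, depth and scaling, the 10 genes correlated with each other at Pearson r between 0.071 (Cyp2j6 with Cyp1a1) and 0.993. Among the 10900 genes with a mean of at least 10 CPM, the genes most like Cyp3a25 were Fabp1, Creb3l3 and Tubal3 (r = 0.997 each), and those most like Cyp2d26 were Apoc3 (r = 0.997), Fabp1 and Lct. Cyp4f14 was closest to Aspa (r = 0.998), Cyp3a13 to Igsf9 (r = 0.998), Cyp3a11 to Ceacam18 (r = 0.995), Cyp2b10 to Ttc39c (r = 0.993), Cyp2j6 to Sec22c (r = 0.996), Cyp2c65 to Wfs1 (r = 0.991), Cyp2c66 to Defa26 (r = 0.983) and Cyp1a1 to Dnahc11 (r = 0.989).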

How the data were processed

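RNA of 8 sorted libraries was sequenced. The authors deposited raw read counts per gene. The mm10 build and the tools HTSeq 0.6.1p1, STAR 2.2.5b and Trimmomatic 0.36 are listed, with no settings, in the submitters' processing notes. Whether counting used strand is not given in the sources used here, although the kit marks it, per the labels' protocols. Groups came from the titles. Symbols were matched to GENCODE M21. HTSeq summary lines were left out of library sizes. Reads counted to no gene made up 64.6 to 79.3% of the uniquely placed reads in CD44plus. In CD44minus they made up 96.6 and 76.8% in Sox4cKO, and 96.3 and 92.0% in control. The part of this difference in the changes between gates was not tested.

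Counts were fitted in R 4.3.3 with edgeR 4.0.16 (quasi-likelihood test, filterByExpr with a minimum count of 10, TMM, 4 groups in 8 libraries) and Benjamini-Hochberg adjustment over 20427 genes; the threshold was 0.05. Alternatives used DESeq2 1.42.0, limma 3.58.1, other scalings and filters, background subtraction, a replicate block and libraries left out. Libraries of both gates carry the same animal number in their table names, so the block pairs gates; deviations from group means correlated across genes at 0.493 for Sox4cKO and 0.102 for control animals, while genotypes share only a number. The P450 genes, the lists and the rule that all 10 are named, with called list members of the highest level, were chosen with earlier results of these data known. With 2 animals per group, precision is limited by their number. The limit of 3 reads for a count of 0 covers counting error only, and no molecular identifiers are named in the labels. Each SE is the absolute log2 fold change divided by the square root of the F statistic of the edgeR test. That test includes an estimate of the spread between libraries.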

Additional observations from a re-analysis of the deposited data

How the results depend on the processing

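The direction between gates held for 9 of the 10 P450 genes in both genotypes under every alternative run. In Sox4cKO the size did not hold for all of them: with 1 library left out, Cyp2c65 reached -0.42 and Cyp2j6 reached -0.10. The value of Cyp2j6 came without Sox4cKO CD44minus replicate 2. Cyp1a1 turned to 0.73 in Sox4cKO when both CD44minus replicate 1 libraries were left out, an alternative chosen after seeing the data, and with 1 library left out at a time it ran from -2.82 to 0.74. The number of P450 genes called between gates in Sox4cKO was 0 with only the 4 libraries compared and 0 to 9 with 1 library left out. In control it was 8 on library totals (675 of 20427 genes fell), 7 with background subtracted by coding length, also chosen after seeing the data (482 of 18058), 9 without both CD44minus replicate 1 libraries (966 of 19401), 10 with only the 4 libraries compared (5480 of 18006) and 8 with the animal as replicate block (2153 of 20427), and 0 to 9 with 1 library left out. DESeq2 called 9 in Sox4cKO and 6 in control. Genes that fell numbered 190 in Sox4cKO and 91 in control with TMM, but 738 and 675 on library totals, 576 and 504 with upper-quartile scaling, 1045 and 1061 with DESeq2, 905 and 2153 with the block, 516 and 1230 with limma-voom and the block, and 0 and 5480 with only the 4 libraries compared. Between genotypes in CD44minus the count of P450 genes was 2 without both CD44minus replicate 1 libraries, where 4325 of 19401 genes were called higher, and 0 to 6 with 1 library left out, the 6 without Sox4cKO CD44minus replicate 1. There, Cyp4f14 turned to -0.073 on library totals and -0.035 with background subtracted by coding length and ran from -0.73 to 1.39 with 1 library left out, Cyp3a13 from -0.64 to 1.68 and Cyp1a1 from -3.11 to 0.47. In CD44plus Cyp3a11 ran from -0.19 to 1.08 with 1 library left out and was 1.85 with background subtracted by coding length. The replicate block, between genotypes by number only (deviations correlated at 0.655 in CD44minus and 0.295 in CD44plus), called 0 P450 genes. Relative to TMM, library totals moved the median of all genes between gates by -0.45 in Sox4cKO and -0.59 in control, and upper-quartile scaling by -0.57 and -0.82. The cause of these shifts was not tested. Depth limits Cyp1a1, Cyp2c66 and Cyp3a11 most.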

Other observations

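Cyp11a1, the P450 enzyme that begins steroid synthesis, was chosen after its values were seen. It had 7.95 and 40.7 CPM in Sox4cKO CD44plus, against 9.20 and 12.8 CPM in control CD44plus. Its CD44minus values were 7.43 and 0.272 CPM in Sox4cKO, against 5.39 and 5.11 CPM in control. Cpa3, a mast cell protease gene, was highest in the same library, at 94.0 and 408 CPM in Sox4cKO CD44plus, against 47.5 and 93.0 CPM in control CD44plus. The relation between these genes was not tested.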
